A study of Mus musculus with 6 samples.

Results

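A set of 32 genes of fatty acid oxidation and of the peroxisome proliferator-activated receptors (PPARs) was followed in RNA from mouse cerebral cortex. They were chosen by name, as receptors, oxidation enzymes and textbook PPAR targets, with earlier results of these data known. All 32, of the 49315 genes in the count files, met the rule of 10 or more reads in at least 3 libraries. Wild-type mice had received, at 21 days of age, a retro-orbital AAV-PHP.eB vector carrying GFP and either a scrambled shRNA (shScr) or an shRNA against Fabp7 (shFabp7), both under a Gfap promoter, which directs expression to astrocytes. From 4 months of age both groups were given lipopolysaccharide (LPS, from the outer membrane of bacteria, which sets off systemic inflammation) at 1 mg/kg weekly, 3 times, and cortex was taken 24 h after the last dose. There were 3 libraries per group, no library without LPS and none without vector, so the comparison is shFabp7 against shScr under LPS. The labels do not say that each library came from a separate animal, and p-values therefore measure the spread between these libraries.

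Fatty acids enter mitochondria as acylcarnitines through the carnitine shuttle and are shortened in a repeating spiral of dehydrogenation, hydration, dehydrogenation and thiolysis, with electrons handed to the respiratory chain by the electron transfer flavoprotein. PPARs are fatty-acid-activated nuclear receptors that bind DNA with a retinoid X receptor (RXR) partner and switch on many of these enzymes, and fatty acid-binding proteins such as FABP7 carry fatty acids inside cells. In brain, oxidation of fatty acids takes place mainly in astrocytes, while neurons depend chiefly on glucose and lactate.

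Libraries held 16914012 to 18991235 counts. Fabp7 stood at 26.3, 15.2 and 15.8 CPM (reads scaled to a common library size with TMM factors) in the shScr group, libraries 1 to 3 in order here and below, and at 5.56, 2.49 and 3.52 CPM in the shFabp7 group. No library overlapped, and the estimate was -2.31 ± 0.35 (log2 fold change and SE) with an adjusted p of 0.0704 in edgeR's quasi-likelihood test and 3.41e-12 in DESeq2. Some cell and region markers also differed between the groups. Excitatory neuron markers summed to 4404 to 6248 CPM in shScr and 7017 to 8146 CPM in shFabp7, with 8 of 8 members above 0, and microglia and macrophage markers to 459.8 to 479.3 and 396.9 to 441 CPM, with 8 of 9 below 0. Pericyte and smooth muscle markers (157.3 to 187.1 and 197.5 to 208.5 CPM) and meningeal fibroblast markers (177.6 to 226.4 and 137.1 to 176 CPM) did not overlap between the groups either. Hippocampal markers summed to 292.8 to 481.7 CPM in shScr and 247.2 to 287.6 CPM in shFabp7, with 9 of 9 below 0. Striatal markers overlapped, at 463.9 to 1149 CPM in shScr and 395.4 to 1255 CPM in shFabp7, with 6 of 9 below 0. Thalamic and hypothalamic markers summed to 143.4, 52.93 and 48.46 CPM in shScr and to 35.92, 34.24 and 36.51 CPM in shFabp7. The ratio of their means, 0.436, owed much to the high shScr library 1. Of the 7 tested, 6 were below 0 and 1 was lower without overlap. Summed astrocyte markers overlapped, at 4687 to 5161 CPM in shScr and 4895 to 5395 CPM in shFabp7. Single astrocyte markers went both ways. Of 10, 4 were lower in shFabp7 without overlap (11.5% of all genes were) and 2 higher without overlap (11.4% of all genes). No marker of these lists was at 0 in all libraries, and the leukocyte list, with Ms4a1 at 0, summed to 12.2 to 13.4 CPM in shScr and 7.77 to 9.61 CPM in shFabp7. The part of these markers in the results below was not tested. In bulk tissue, fewer cells of a type and less RNA per cell cannot be told apart.

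Promoter sequence was examined for the genes with an entry in the RefSeq promoter table (build GRCm38.p6, the 250 bases before and 50 after each start), which held 29 of the 32 (all but Angptl4, Decr1 and Acaa2). A PPAR with its RXR partner recognises the hexamer AGGTCA repeated with 1 base between, and this repeat was searched on both strands with up to 2 mismatches in the 12 fixed letters. It was found in 2 of the 29 genes (6.9%), Etfa and Slc25a20, against 4.4% of all 27025 genes in the table, and in 0 of the 29 with 1 mismatch allowed, against 0.644%. The single hexamer without mismatch occurred in 5 of the 29 (17.2%), Acadm, Acadvl, Cpt1a, Cpt1c and Pparg, against 18.1% of all genes, and AGAACA followed after 3 bases by TGTTCT, which the glucocorticoid receptor binds, in 0 of the 29 with up to 2 mismatches, against 2.1%. The 2 matches to the repeat did not overlap any match to the single hexamer. These are matches of letters and not measured binding, and receptors often bind outside such windows.

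The stretches below carry the matches for the carnitine carrier, the electron acceptor, the entry enzyme and the receptor itself, with the matching bases in capitals, followed by the bases that Hadha and Hadhb share as their upstream sequence. Etfa is shown at chr9:55512244-55512493 (minus strand), where the match begins at position -77 from the start and reads as the repeat on the opposite strand. Cpt1a is shown at chr19:3323051-3323300 (plus strand), where the hexamer lies at -94 on the opposite strand. Slc25a20 is shown at chr9:108662134-108662163 (plus strand), with the repeat 6 bases after the start, and Pparg at chr6:115361104-115361133 (plus strand), with the hexamer at -28. Hadha (minus strand) and Hadhb (plus strand) lie head to head, and the 85 bases between them as the files place both genes are at chr5:30155163-30155247, written on the plus strand.
Etfa: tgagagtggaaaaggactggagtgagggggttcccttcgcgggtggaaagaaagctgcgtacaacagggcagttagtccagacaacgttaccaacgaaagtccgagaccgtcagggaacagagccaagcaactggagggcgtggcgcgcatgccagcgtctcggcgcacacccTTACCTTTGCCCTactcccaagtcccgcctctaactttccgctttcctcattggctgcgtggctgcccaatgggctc
Cpt1a: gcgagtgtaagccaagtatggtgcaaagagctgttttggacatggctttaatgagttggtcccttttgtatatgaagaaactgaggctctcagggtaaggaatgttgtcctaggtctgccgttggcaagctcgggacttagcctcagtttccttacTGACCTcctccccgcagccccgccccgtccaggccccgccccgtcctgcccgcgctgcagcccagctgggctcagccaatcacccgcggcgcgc
Slc25a20: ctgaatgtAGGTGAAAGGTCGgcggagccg
Pparg: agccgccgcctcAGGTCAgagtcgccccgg
Hadha-Hadhb: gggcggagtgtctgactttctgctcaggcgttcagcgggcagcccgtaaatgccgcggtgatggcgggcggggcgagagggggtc

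None of the 32 genes differed between shFabp7 and shScr after adjustment over the 17185 genes tested, where 0.116% of all genes passed, 0.0582% lower and 0.0582% higher (edgeR's quasi-likelihood test, threshold 0.05). Adjusted p-values of the 32 ran from 0.236 to 0.985 in edgeR, and the lowest in DESeq2, which called 0 of the 32 and 4.11% of all genes, was 0.219. At an unadjusted p under 0.05 there was 1 gene, Eci1, which is 3.12% of the list against 16.8% of all genes (8.32% lower and 8.44% higher). The groups did not overlap for 4 genes, Acadl, Decr1, Eci1 and Etfa, all lower in shFabp7. That is 12.5% of the list, against 11.5% of all genes lower without overlap, and 0 genes of the list were higher without overlap, against 11.4% of all genes.

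Estimates leaned slightly below 0: 23 of the 32 genes had a log2 fold change below 0 (71.9%, against 51.5% of all genes), and the median was -0.077, against -0.0065 over all genes tested. Over the alternatives, the median was nearest 0 when shFabp7 library 1 was left out, at -0.026 with 19 genes below 0. That library held the lowest value of the 6 for 13 of the 32 genes and the highest for 0, while shScr library 3 held the highest for 12 and the lowest for 1. For 24 of the 32 genes the 95% interval of the difference lay within 1.5-fold in either direction (75%, against 61.3% of all genes tested). The 8 genes whose intervals reached further were Ppara, Ppard, Pparg, Cpt2, Acads, Ehhadh, Acot1 and Angptl4.

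**Figure D1:**
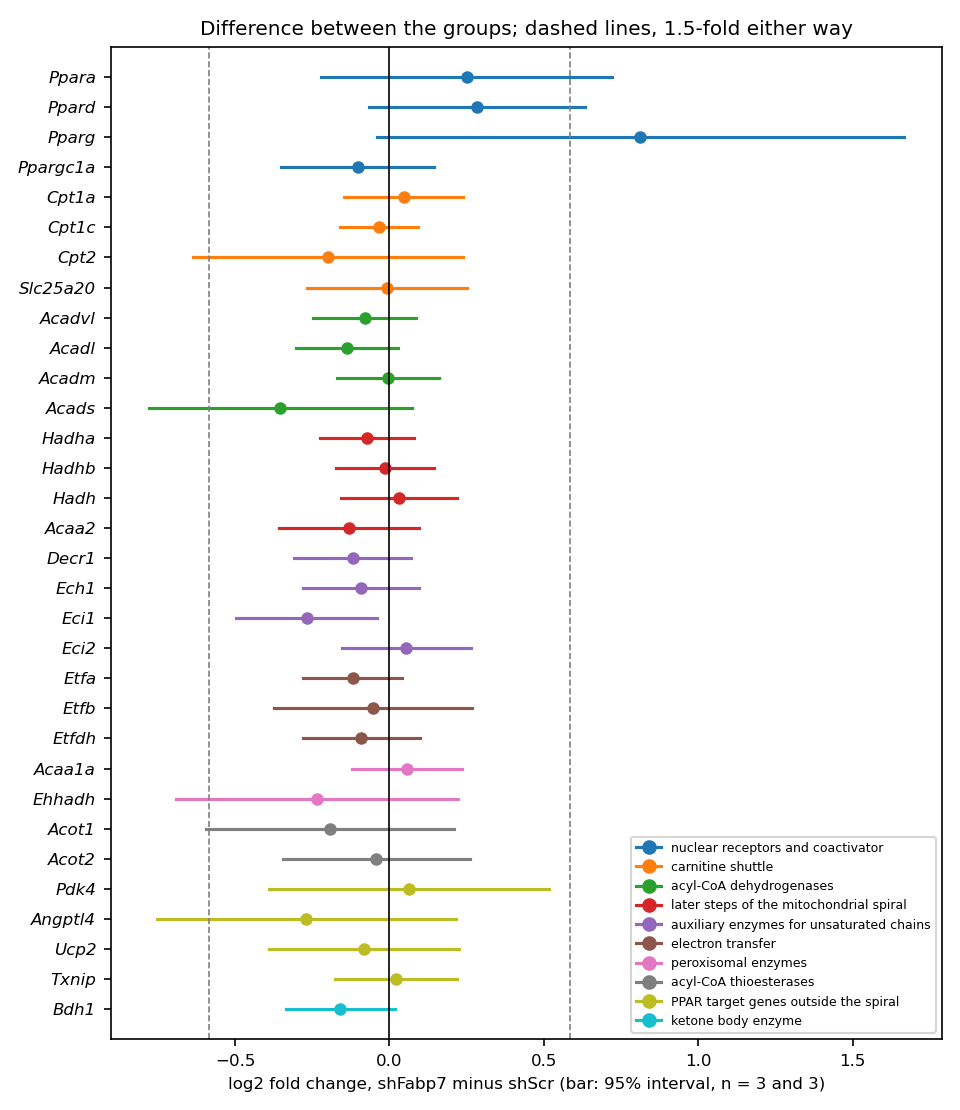
Log2 fold change (shFabp7 minus shScr) of each of the 32 genes with its 95% interval, coloured by role, with dashed lines at 1.5-fold either way. Most points sit close to 0, Pparg lies farthest out at 0.81 with an interval that includes 0, and the interval of Eci1 is the 1 that leaves 0 out.

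Levels were compared between genes per exon length, in TPM (reads divided by the exon length in the files and scaled to a common total, averaged over all 6 libraries). Cpt1c, the brain form of carnitine palmitoyltransferase 1, had the highest mean at 69.1 TPM. Acadl, the long-chain acyl-CoA dehydrogenase, at 66.5 TPM and Etfa, a subunit of the electron transfer flavoprotein, at 65.4 TPM came next, and their libraries overlapped with those of Cpt1c. Acaa1a, the peroxisomal thiolase, at 56.5 TPM and Acadvl, the very-long-chain dehydrogenase, at 53.7 TPM followed. At the low end stood Angptl4, Ehhadh, Ppara and Pparg, with 3.53, 3.59, 3.61 and 5.60 TPM, and the first 3 of these overlapped with each other. Cpt1a, the form of the palmitoyltransferase known from liver and astrocytes, averaged 29.7 TPM. The order depends on length scaling: by CPM alone Hadha ranked 2 of 32, and by TPM 13.

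**Figure D2:**
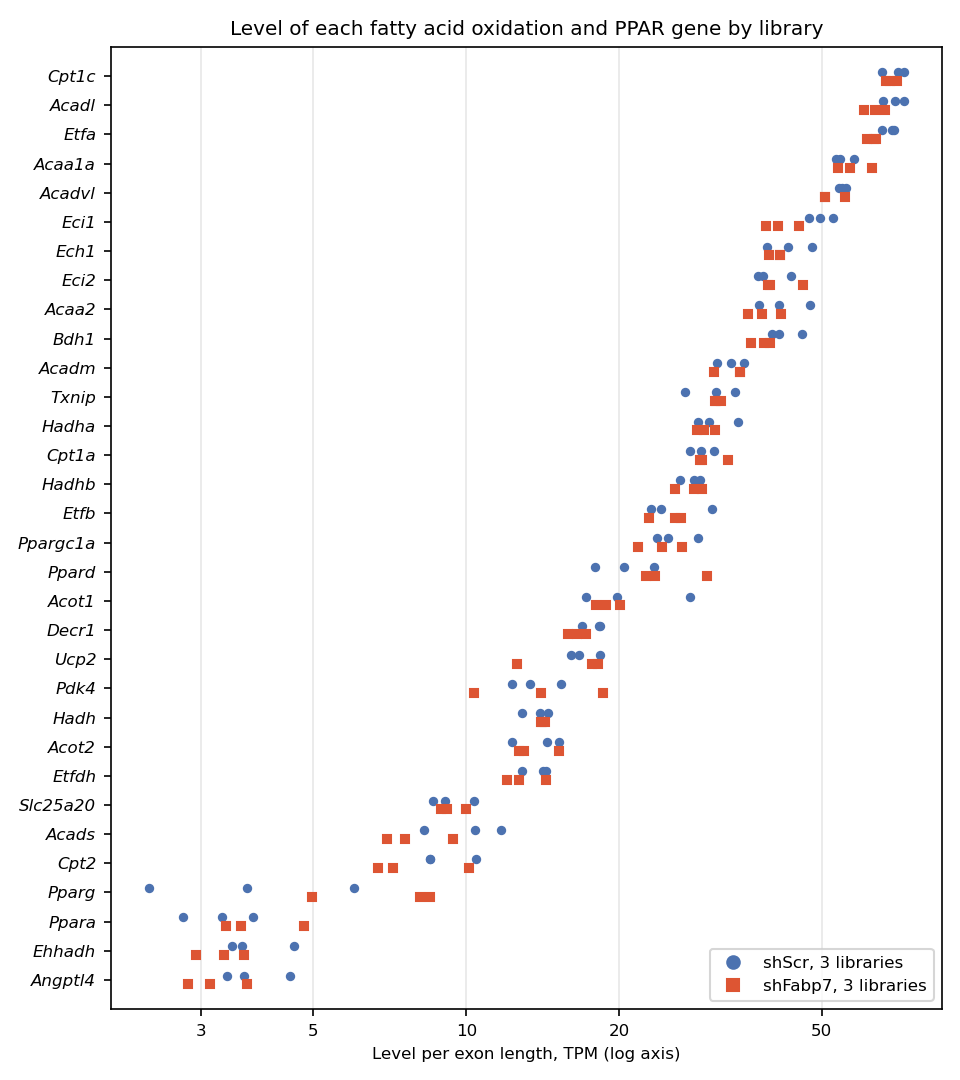
Level of each of the 32 genes in TPM on a log axis, 1 point per library, circles for shScr and squares for shFabp7, sorted by mean level. Levels span from 3.53 TPM (Angptl4) to 69.1 TPM (Cpt1c), and for most genes the squares fall among the circles.

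Of the receptors and their coactivator, Pparg had the largest difference of the whole list, and it did not pass the test. Pparg, the PPAR best known from fat cells and macrophages, lies on chromosome 6 from 115360951 to 115490399 (ENSMUSG00000000440). It stood at 1.90, 5.16 and 3.06 CPM in shScr and at 4.06, 7.12 and 6.62 CPM in shFabp7. The groups overlapped, since shScr library 2 lay above shFabp7 library 1. Means were 3.37 ± 1.65 and 5.93 ± 1.64 CPM (SD, n = 3 each). The log2 fold change was 0.81 ± 0.37 (SE, 95% interval -0.042 to 1.67) with an adjusted p of 0.313 in edgeR.

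The Pparg value changed with the libraries left out and with the terms in the fit. Without shScr library 2 its log2 fold change was 1.26 and it passed with an adjusted p of 0.0499 in edgeR, in a fit that called 5.14% of all genes. It also passed without a filter on low counts (0.81, adjusted p = 0.00505), in a fit that called 5.23% of the 30935 genes then tested. Without shScr library 1 it was 0.53 (1.04% of all genes called), and without shFabp7 library 1 it was 1.02. With shScr libraries 1 and 3 both left out it was 0.20 (0.662% called), but there shScr library 2, the highest of shScr for Pparg, stood alone and the spread came from shFabp7 only. With the replicate number as a block it was 0.86, adjusted p = 0.0558 in edgeR, where 3.66% of all genes were called. The mean log2 CPM of markers of hippocampus, striatum, thalamus and hypothalamus, and choroid plexus and ependyma was 3.80, 2.91 and 3.36 across shScr and 2.76, 2.26 and 2.87 across shFabp7, without overlap. With that score as a covariate the Pparg value was 0.045 (0.0233% of all genes called). Because the score itself separates the groups, region and shRNA cannot be told apart in any fit with that covariate. With sex as a covariate 0 of the 32 were called (0.0407% of all genes). Excitatory neuron markers were at 4404, 6248 and 6056 CPM in shScr and at 7333, 8146 and 7017 CPM in shFabp7, and their part in the Pparg values was not tested.

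Ppard, the most widely expressed PPAR and by TPM the highest of the 3 here, showed the same order of libraries within shScr. It stood at 22.6, 31.5 and 26.5 CPM in shScr and at 28.9, 39.2 and 30.1 CPM in shFabp7, where library 2 was high and the groups overlapped. Its log2 fold change was 0.28 ± 0.15 (SE, 95% interval -0.066 to 0.63), and it turned to -0.15 with the regional score as a covariate and was 0.14 without shFabp7 library 2. Ppara, the PPAR that drives hepatic fatty acid oxidation, stood at 3.97, 3.09 and 3.55 CPM in shScr and at 3.83, 5.23 and 3.58 CPM in shFabp7. Only shFabp7 library 2 lay above the shScr range, and the log2 fold change of 0.25 ± 0.21 (SE, 95% interval -0.22 to 0.72) became 0.067 without that library. Ppargc1a, a coactivator of PPARs and of mitochondrial biogenesis, stood at 44.8, 54.8 and 43.8 CPM in shScr and at 39.6, 49.6 and 44.3 CPM in shFabp7. Library 2 was the highest in both groups, and the log2 fold change was -0.10 ± 0.11 (SE), which was -0.35 with the regional score as a covariate.

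**Figure D3:**
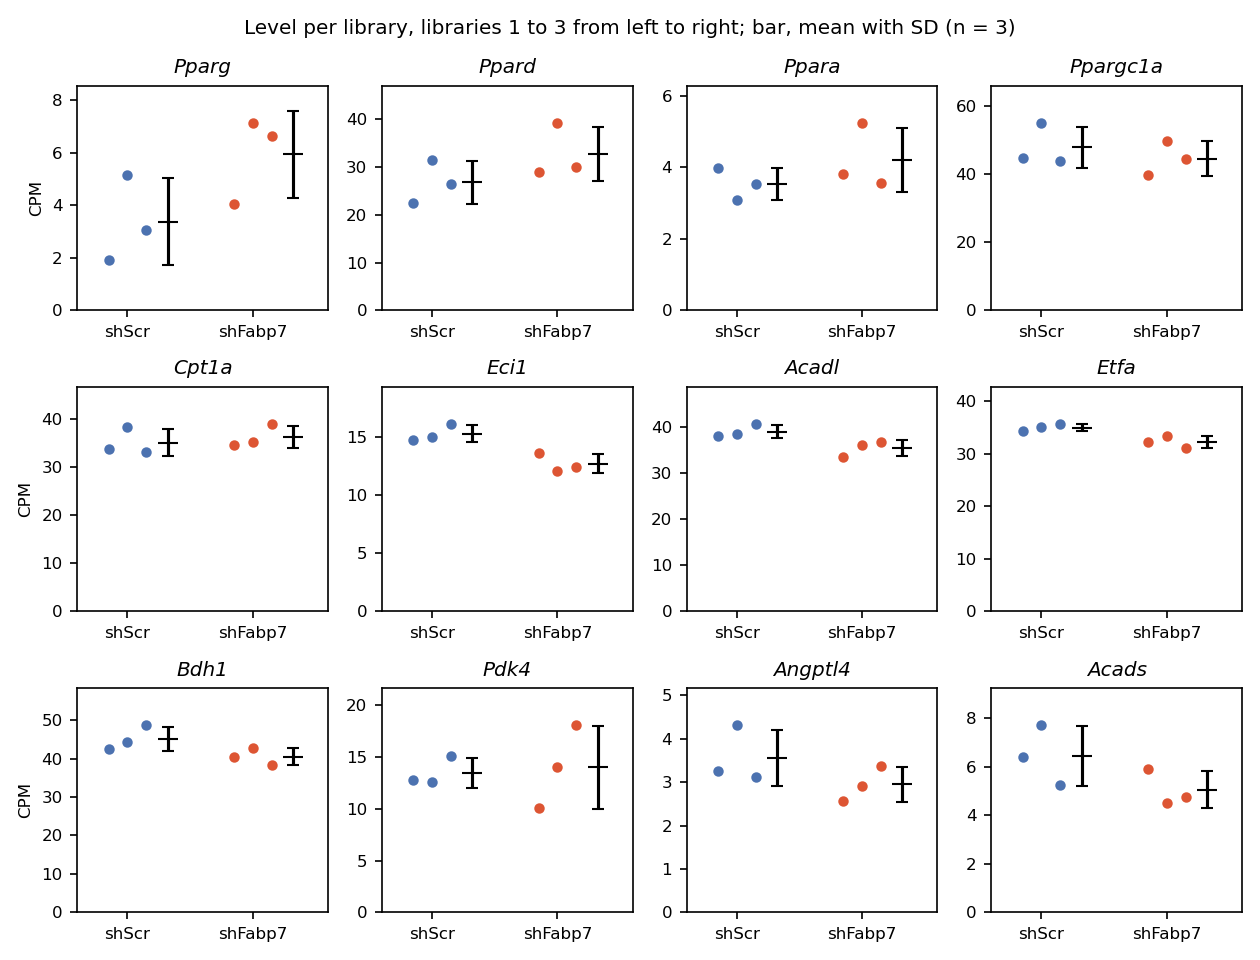
CPM of 12 of the genes in each library (points, libraries 1 to 3 from left to right) with the group mean and SD (bars, n = 3). Pparg, Ppard and Ppara spread widely within each group, Eci1, Acadl and Etfa are tightly grouped with the 3 shFabp7 points below the 3 shScr points, and Pdk4 spreads from 10.04 to 18.04 CPM within shFabp7.

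The carnitine shuttle had log2 fold changes from -0.20 to 0.046, and 0 of 4 genes passed the test. Cpt1a, which performs the rate-limiting step of entry and whose promoter is shown above, stood at 33.9, 38.5 and 33.2 CPM in shScr and at 34.7, 35.3 and 38.97 CPM in shFabp7. The ranges overlapped almost fully, and the log2 fold change was 0.046 ± 0.09 (SE, 95% interval -0.15 to 0.24), which in fold terms is 0.903 to 1.18. Its sign turned in 4 of the 18 alternatives tried. Cpt1c, an endoplasmic reticulum protein of neurons with little oxidative activity, was at 107.9, 107.2 and 114.007 CPM in shScr and at 105.7, 106.7 and 109.3 CPM in shFabp7, with a 95% interval of 0.896 to 1.07 in fold. This was the narrowest interval of the list. Slc25a20, the carnitine-acylcarnitine carrier of the inner membrane, was at 11.3, 12.8 and 14.03 CPM and at 12.3, 12.3 and 13.4 CPM, a log2 fold change of -0.0080 ± 0.12 (SE). Cpt2, which turns acylcarnitine back into acyl-CoA in the matrix, was at 6.80, 5.90 and 5.68 CPM and at 4.42, 6.87 and 4.75 CPM. Here shFabp7 library 2 was above and libraries 1 and 3 below the shScr range, and the log2 fold change was -0.20 ± 0.20 (SE), with -0.42 when shFabp7 library 2 was left out and -0.079 when library 1 was.

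**Figure D4:**
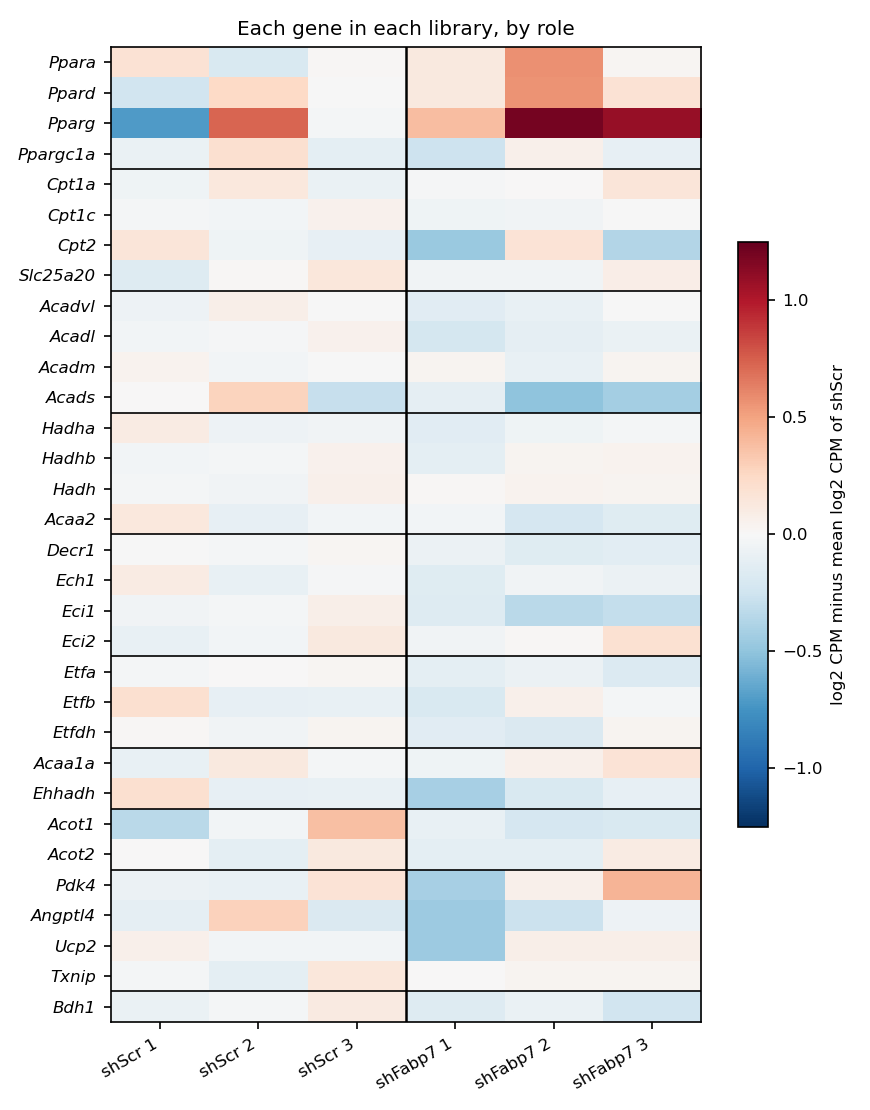
Log2 CPM of each gene in each library minus the mean log2 CPM of the 3 shScr libraries, with genes ordered by role (horizontal lines divide the roles, the vertical line the groups). Pparg is red in every shFabp7 library and in shScr library 2, and Ppard and Ppara are red chiefly in shFabp7 library 2. Most of the enzyme rows hold pale shades, and shFabp7 library 1 is blue for Cpt2, Ehhadh, Pdk4, Angptl4 and Ucp2.

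The acyl-CoA dehydrogenases, which take the opening step of the spiral for chains of falling length, all had values below 0, and 0 of 4 passed. Their summed level was 169.5, 164.7 and 168.7 TPM in shScr and 155.1, 152 and 164.2 TPM in shFabp7, with the highest shFabp7 library just under the lowest shScr library. Acadl stood at 38.1, 38.6 and 40.7 CPM in shScr and at 33.6, 36.2 and 36.9 CPM in shFabp7. Every shFabp7 library lay below every shScr library, by a small step: the log2 fold change was -0.14 ± 0.07 (SE, 95% interval -0.30 to 0.027), with an adjusted p of 0.376 in edgeR. Acads, the short-chain enzyme, had the lowest log2 fold change of the list, -0.35 ± 0.19 (SE, 95% interval -0.78 to 0.072). It stood at 6.42, 7.71 and 5.24 CPM in shScr and at 5.92, 4.5004 and 4.75 CPM in shFabp7, and shScr library 3 lay below shFabp7 library 1. Over the alternatives its value ran from -0.61 to -0.20, the latter without shScr library 2, where Ehhadh (-0.29), Eci1 (-0.28) and Cpt2 (-0.22) were lower. Acadvl and the medium-chain enzyme gene Acadm had -0.080 and -0.0047, both with intervals within 1.5-fold, and the sign of Acadm turned in 6 of the 18 alternatives. Acadvl shares 42.9% of its exon bases with Dvl2 on the opposite strand, and without knowing how strand was counted its level is uncertain.

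The later steps of the spiral differed by no more than 0.13 in either direction. Hadha and Hadhb encode the alpha and beta subunits of the mitochondrial trifunctional protein, which carries out the last 3 steps for long chains, and lie head to head around the sequence shown above. Hadha stood at 81.4, 72.5 and 73.2 CPM in shScr and at 68.5, 72.7 and 74.6 CPM in shFabp7, and Hadhb at 50.3, 50.6 and 53.3 CPM and at 47.04, 52.5 and 52.95 CPM. In both genes shFabp7 library 1 was the lowest of the 6, and the log2 fold changes were -0.073 ± 0.07 (SE) and -0.015 ± 0.07 (SE). Hadh, the dehydrogenase for shorter chains, had 0.031, and Acaa2, the mitochondrial thiolase encoded on chromosome 18 from 74779197 to 74806207, had -0.13. A share of 19.7% of the 50-base words of Hadhb transcripts also occurs in other genes, chiefly Gm13910, so reads could be split between them.

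Eci1 was the gene of the list with the lowest unadjusted p (0.0262). It encodes the mitochondrial enoyl-CoA isomerase that moves double bonds so that unsaturated fatty acids can pass through the spiral, and lies on chromosome 17 from 24426683 to 24439316 (ENSMUSG00000024132). It stood at 14.7, 15.001 and 16.05 CPM in shScr and at 13.6, 12.04 and 12.4 CPM in shFabp7, with every shFabp7 library below every shScr library. Means were 15.3 ± 0.688 and 12.7 ± 0.835 CPM (SD, n = 3 each). The log2 fold change was -0.27 ± 0.10 (SE, 95% interval -0.495 to -0.039), which is 0.831 of the shScr level. The adjusted p was 0.236 in edgeR and 0.413 in DESeq2. An exact permutation test of the CPM means (two-sided) returned p = 0.1, which is as low as 3 libraries a group can reach. Its sign held in all 18 alternatives, with values from -0.32 to -0.23 and adjusted p-values from 0.173 to 0.958.

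The other enzymes for unsaturated chains had smaller values. Decr1, the dienoyl-CoA reductase, stood at 19.4, 19.1 and 19.8 CPM in shScr and at 18.5, 17.5 and 17.7 CPM in shFabp7, without overlap, and its log2 fold change was -0.12 ± 0.08 (SE). Ech1, a dienoyl-CoA isomerase, had -0.094, and Eci2, a second isomerase found in mitochondria and peroxisomes, had 0.054. Eci1 and Eci2 had estimates on opposite sides of 0, and the difference between them was not tested.

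Electron transfer genes were all below 0, by 0.12 at most, although Etfb turned sign in 4 and Etfdh in 1 of the 18 alternatives. Etfa, whose promoter held a near match to the repeat, stood at 34.3, 35.1 and 35.6 CPM in shScr and at 32.2, 33.3 and 31.1 CPM in shFabp7. The groups did not overlap, and the log2 fold change was -0.12 ± 0.07 (SE, 95% interval -0.28 to 0.040). Slc25a20, the other gene with a near match, had -0.0080. Etfdh, the ubiquinone oxidoreductase that receives the flavoprotein's electrons, had -0.091, and Etfb, the partner subunit of Etfa, -0.054. Etfb shares 53% of its exon bases with Gm45233 on the same strand, so its reads could be lost or split.

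The 15 enzymes of the matrix and electron transfer summed to 560.7, 512.4 and 547.8 TPM in shScr and to 504.8, 497.3 and 522.9 TPM in shFabp7. The groups overlapped because shScr library 2 lay below shFabp7 library 3, and the ratio of the means was 0.941. Of these 15 genes, 13 had values below 0. With total counts in place of TMM factors the median of the 32 genes moved from -0.077 to -0.127, and that of all genes tested from -0.0065 to -0.056. On that scale 7 genes were lower without overlap, the 4 above with Acadvl, Ehhadh and Bdh1, where 16.5% of all genes were.

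Peroxisomal and thioesterase genes showed no difference beyond the spread. Acaa1a stood at 63.998, 74.2 and 67.2 CPM in shScr and at 65.6, 71.3 and 76.8 CPM in shFabp7, with an estimate of 0.057 ± 0.08 (log2 fold change and SE). Ehhadh, the peroxisomal bifunctional enzyme and a classical PPAR-alpha target in liver, stood at 3.75, 3.03 and 3.06 CPM and at 2.45, 2.86 and 3.04 CPM, with -0.23 ± 0.20 (SE, 95% interval -0.69 to 0.22) and a range over the alternatives from -0.30 to -0.066. Acot1 and Acot2 encode cytosolic and mitochondrial acyl-CoA thioesterases, which release free fatty acid from acyl-CoA, and lie 15628 bases apart on chromosome 12. Acot1 stood at 7.29, 8.99 and 12.01 CPM in shScr and at 8.67, 7.97 and 8.11 CPM in shFabp7, so that its estimate of -0.19 became 0.018 without shScr library 3. Acot2 had -0.042. Of the 50-base words of Acot2 transcripts 24.5% also occur in Acot1, and 13.6% of those of Acot1 in Acot2, so the division of reads between the pair is uncertain. For Acaa1a, 12.4% of its words also occur in Acaa1b.

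PPAR target genes outside the spiral gave no common direction, with 2 of 4 above 0 and 0 past the test. Pdk4, the kinase that shuts off pyruvate dehydrogenase when fat is burned, stood at 12.7, 12.6 and 15.1 CPM in shScr and at 10.04, 13.99 and 18.04 CPM in shFabp7. The shFabp7 libraries spread on both sides of the shScr range, with a coefficient of variation of 28.5% against 10.4% in shScr, and the log2 fold change was 0.063 ± 0.20 (SE). Without shFabp7 library 3 it was -0.16 and without shFabp7 library 1 0.25. Angptl4, a secreted inhibitor of lipoprotein lipase, stood at 3.27, 4.31 and 3.11 CPM and at 2.57, 2.92 and 3.36 CPM, with a log2 fold change of -0.27 ± 0.22 (SE, 95% interval -0.75 to 0.21). Leaving out shScr library 2 gave -0.11, and the regional covariate gave -0.45. Ucp2, a mitochondrial carrier linked to fatty acid use and abundant in microglia, stood at 34.9, 32.7 and 32.5 CPM and at 24.3, 35.03 and 35.1 CPM. Only shFabp7 library 1 was low, and the value of -0.082 became 0.073 without it. Txnip, the thioredoxin-interacting protein that responds to glucose, had 0.021 and a 95% interval of 0.885 to 1.16 in fold.

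Bdh1, which interconverts the ketone bodies acetoacetate and beta-hydroxybutyrate in mitochondria, stood at 42.6, 44.2 and 48.6 CPM in shScr and at 40.4, 42.6 and 38.2 CPM in shFabp7. Library 2 of shFabp7 reached just above library 1 of shScr, and the others lay below the shScr range. The log2 fold change was -0.16 ± 0.08 (SE, 95% interval -0.34 to 0.017) with an adjusted p of 0.339 in edgeR, and it was below 0 in all 18 alternatives, from -0.24 to -0.10.

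Of 78 other genes of these pathways, 69 had enough counts to test and 0 passed in edgeR after adjustment. At an unadjusted p under 0.05 there were 6 lower and 7 higher (18.8% of the 69, against 16.8% of all genes). DESeq2, which called 4.11% of all genes, called 2 of the 69, Pprc1 lower and Abcd2 higher. The median was -0.0048, with 35 of 69 below 0. The PPAR targets Cyp4a10, Cyp4a14 and Cidec, known from liver and fat, had 0 reads in all libraries.

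Among the partners and coregulators of PPARs, 10 of 13 genes had values above 0, 5 of them and 1 lower gene at an unadjusted p under 0.05. Pprc1, a coactivator related to Ppargc1a, was that lower gene, at 32.5, 31.9 and 30.3 CPM in shScr and 24.2, 23.5 and 23.3 CPM in shFabp7. The groups were far apart relative to their spread, with a log2 fold change of -0.42 ± 0.08 (SE) and an adjusted p of 0.0656 in edgeR and 0.0102 in DESeq2. Pprc1 also passed in 4 other alternatives, each of which called a larger share of the genes it tested than the 0.116% of the main fit. They were the fit without a filter (5.23% called) and limma-voom (0.634%). The others were the fit with the replicate number as a block (3.66%) and the fit without shScr library 2 (5.14%). Rxrb, an RXR that pairs with PPARs and many other receptors, stood at 65.8, 69.5 and 66.9 CPM in shScr and at 81.3, 77.4 and 77.99 CPM in shFabp7, with a log2 fold change of 0.23 ± 0.06 (SE) and an adjusted p of 0.119 in edgeR. Prkaa2, a catalytic subunit of the energy sensor AMPK, is not among these 13 genes and was listed under energy sensing control. It stood at 41.1, 48.6 and 44.4 CPM in shScr and at 55.4, 57.8 and 49.8 CPM in shFabp7. It had a log2 fold change of 0.28 ± 0.09 (SE) and its groups did not overlap (adjusted p of 0.166 in edgeR). With the regional score as a covariate the Prkaa2 value was 0.085.

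Acadsb, a mitochondrial dehydrogenase of short branched chains from isoleucine breakdown, stood at 78.6, 73.6 and 76.7 CPM in shScr and at 65.5, 63.005 and 61.3 CPM in shFabp7. Its log2 fold change of -0.27 ± 0.06 (SE) equalled that of Eci1 to 2 decimals on far more reads, and its adjusted p was 0.0899 in edgeR and 0.0505 in DESeq2. All 5 other ketone body genes had values below 0, with 3 at an unadjusted p under 0.05. Of these, 2 are given here, chosen after their values were seen: Slc16a1, the transporter MCT1 that carries lactate and ketone bodies, at -0.28 ± 0.09 (SE), and Bdh2, a cytosolic dehydrogenase, at -1.48 ± 0.40 (SE). Bdh2 was low in all libraries, at 1.41, 0.798 and 1.36 CPM in shScr and 0.538, 0.304 and 0.427 CPM in shFabp7. Their adjusted p-values in edgeR were 0.185 for Slc16a1 and 0.132 for Bdh2. Abcd2, a peroxisomal importer of very long acyl chains, was at 37.4, 46.3 and 41.5 CPM in shScr and 47.998, 79.1 and 63.7 CPM in shFabp7 (log2 fold change 0.61 ± 0.19 SE, adjusted p of 0.202 in edgeR and 0.0118 in DESeq2). With the regional score as a covariate the value was 0.24 for Abcd2.

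**Figure D5:**
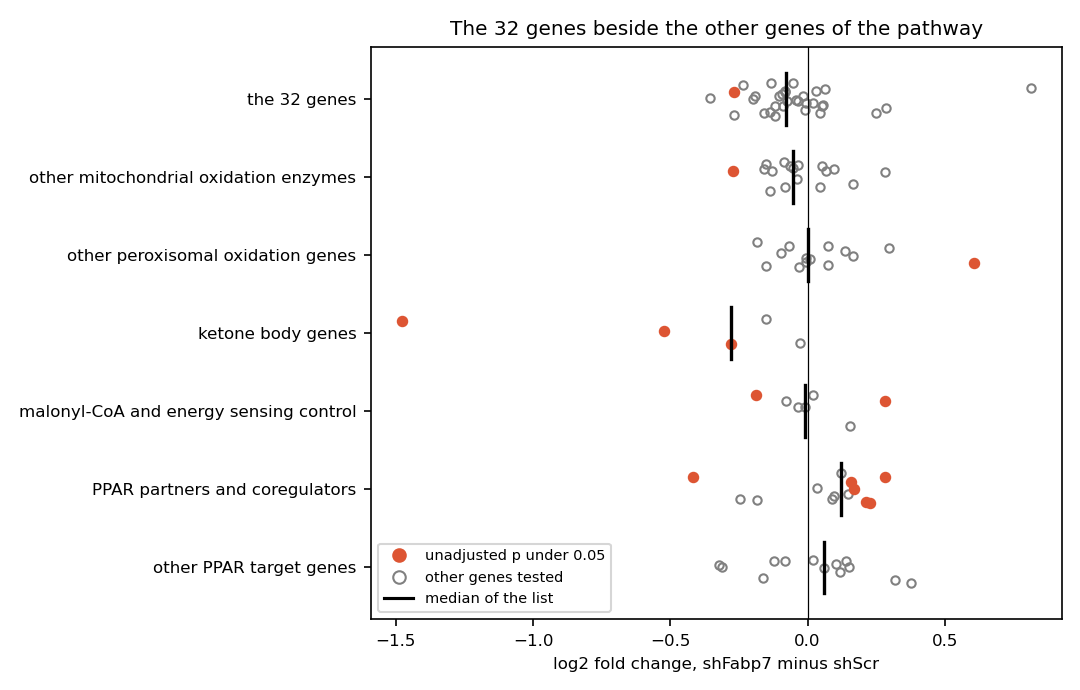
Log2 fold change (shFabp7 minus shScr) of the 32 genes and of the 69 other pathway genes tested, by list, with the median as a bar and genes at an unadjusted p under 0.05 filled. Eci1 is the 1 filled point among the 32, and 6 of the 13 PPAR partners and coregulators and 3 of the 5 other ketone body genes are filled.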

How the data were processed

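RNA from cortex was sequenced with a stranded mRNA kit from 0.5 µg of total RNA, per the labels' protocols. Values deposited by the authors are whole, unnormalized counts of reads for each gene, and the header of each file is that of featureCounts. Tools listed in the submitters' processing notes, without role or order, were DESeq2, STAR 2.5.2b, Trimmomatic 0.36 and Subread 1.5.2, with build GRCm39. Gene positions in the files follow GRCm38 instead: 91.4% of 49056 shared gene IDs had the positions of GENCODE M21, and positions are printed as GRCm38. Strand and multi-mapping settings are not given in the sources used here. Symbols came from a supplied table of gene IDs and names, which named 48970 of 49315 genes. Unnamed genes took 0.0991% to 0.114% of counts.

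Genes were filtered with filterByExpr (all 32 passed), scaled by TMM factors and tested with edgeR 4.0.16 (R 4.3.3; robust quasi-likelihood fit on group alone, two-sided, Benjamini-Hochberg adjustment over all 17185 genes). SEs were derived from the estimate and its F statistic, and 95% intervals from the same fit. Exact permutation tests compared CPM means. Per-library values were printed for the receptors, the carnitine shuttle, genes at an unadjusted p under 0.05 (or without overlap at a log2 fold change of 0.3 or more either way) and, of the other pathway genes, the 4 with the lowest p at 1 CPM or more; others were chosen after their values were seen. The members and lists were chosen with earlier results of these data known. TPM used the files' exon lengths, which join all transcripts of a gene. Shared sequence was counted as 50-base words of GENCODE M21 transcripts.

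Scripts were tested on simulated data. No library was a copy of another (chi-square per degree of freedom 6.32 to 36.3 between pairs). Alternatives were RLE and upper-quartile factors, 3 other filters, DESeq2 1.42.0, limma-voom (limma 3.58.1), the replicate block, covariates for regional markers and for sex (read from Xist and Y-linked genes: 1 female in shScr, 2 in shFabp7), each library left out, shScr libraries 1 and 3 left out, and a threshold of 0.1. The reading of shFabp7 library 2 as female is less clear, with Xist at 747 CPM and Y-linked genes at 13.2 CPM (of total counts). In shScr library 3 these were 947 and 1.49 CPM, and in shFabp7 library 3 they were 941 and 1.90 CPM. Why that library differed was not tested. Scaling by total counts was added after seeing the data. Values of some genes of the lists are not reported here.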

Additional observations from a re-analysis of the deposited data

How the results depend on the processing

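Each of 37 genes (the 32, Fabp7 and the 4 other pathway genes named by rule) was recomputed under 18 alternatives, and 626 of 666 values kept their sign. Within each alternative, the number of the 32 genes below 0 lay between 19 and 26. These were not always the same genes, since 18 of the 32 turned sign in at least 1 alternative. The number of genes called, 20 of all genes, was 1617 with no filter, 699 in DESeq2, 109 in limma-voom, 629 with the replicate block, 4 with the regional score, 7 with sex as a covariate, 120 without shScr libraries 1 and 3, 292 at a threshold of 0.1, and 0 (without shFabp7 library 2 or 3) to 900 (without shScr library 2) with single libraries left out. Of the 32, 0 were called, against 1 (Pparg) with no filter and 0 to 1 (Pparg, without shScr library 2) with single libraries left out; at an unadjusted p under 0.05 edgeR had 1. Of the other pathway genes, 0 were called, against 7 with no filter, 2 in DESeq2, 1 in limma-voom, 2 with the replicate block, 2 at a threshold of 0.1 and 0 to 4 with single libraries left out. The block changed no call among the 32 (Pparg 0.86, adjusted p = 0.0558 in edgeR), and the numbers were not taken as pairs: deviations of same-numbered libraries correlated at 0.0808, 0.154 and 0.0573, and not every library correlated best with its own number. The median of the 32 was -0.127 with total counts and -0.0997 to -0.0256 with single libraries left out.

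The following signs turned, and the cause was not tested. With total counts: Cpt1a -0.0030, Hadh -0.018, Txnip -0.028. In DESeq2: Acadm 0.0019. With the regional score: Ppard -0.15, Cpt1a -0.014, Acadm 0.095, Hadha 0.014, Acaa2 0.038, Etfb 0.052, Etfdh 0.0069, Acaa1a -0.041, Acot2 0.090. With sex: Acadm 0.0068, Eci2 -0.00064, Pdk4 -0.11, Txnip -0.017. Without shScr libraries 1 and 3: Cpt1a -0.083, Acadm 0.034, Hadhb 0.0064, Etfb 0.055, Acaa1a -0.059, Acot2 0.085. Ranges with single libraries left out were Acadm -0.0259 to 0.0385, Etfb -0.109 to 0.0530, Ppargc1a -0.187 to 0.00807, Txnip -0.0369 to 0.0969, Slc25a20 -0.0842 to 0.0677, Hadhb -0.0455 to 0.0380, Acot1 -0.346 to 0.0185, Acot2 -0.122 to 0.0204, Ucp2 -0.168 to 0.0734, Cpt1a -0.00814 to 0.116, Eci2 -0.0167 to 0.119 and Pdk4 -0.162 to 0.254. In the direct repeat search, allowing 1 mismatch in place of 2 left 0 of 29 genes. Ppara, Pparg, Ehhadh and Angptl4 had 145 to 309 reads per group, and their 95% intervals hold both 0 and a difference of 1.5-fold. Where shScr libraries 1 and 3 were left out, 1 shScr library remained and was assumed to vary like the shFabp7 libraries.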
